A study of Homo sapiens with 3 samples.

Results

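A gene-dense segment of band 11q13 on the long arm of chromosome 11 was described by its Spindlin1 and C11orf84 peaks. A peak belonged to the segment when its summit lay from 64000000 to 69000000 on chromosome 11 of the human genome build hg19. The rule used position alone and gave 3511 peaks of 331107 in both lists. Of these, 1662 were Spindlin1 peaks (of 153468) and 1849 were C11orf84 peaks (of 177639).

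The peaks came from chromatin immunoprecipitation followed by sequencing (ChIP-seq) in U2OS, an established human osteosarcoma cell line that was left untreated and fixed with formaldehyde. The 2 groups differed in the antibody alone, which was against Spindlin1 or against C11orf84, and an Input sample carried no antibody. Each group was 1 library, so no difference below could be checked against replicates, and p-values are not given. Intervals are exact Clopper-Pearson or Poisson 95% intervals and cover counting error only. Neighbouring peaks are not independent, and the intervals are therefore likely too narrow.

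Spindlin1 is a reader protein whose Tudor-like domains dock on the methylated tail of histone H3, a mark of active gene starts among others. C11orf84 is a binding partner of Spindlin1. Band 11q13 is known for many short, broadly expressed genes, among them RELA, KAT5 and MEN1, and for NEAT1 and MALAT1, a pair of abundant long noncoding RNAs that stay in the nucleus. NEAT1 builds the nuclear bodies called paraspeckles, and MALAT1 gathers in nuclear speckles, where splicing factors are stored. In the RefSeq gene order NEAT1 is preceded by FRMD8 and SLC25A45 and followed by MIR612, FAUP4, ENEMAL, LINC02736 and then MALAT1. Positions of these neighbours in hg19 were not used here, so peaks are tied to no gene other than NEAT1 and MALAT1.

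The peak described below at the start of MALAT1 makes the sequence of that start of interest. RefSeq gives MALAT1 more than 1 start, and the 300 bases from 250 before to 50 after the first and the next of them are printed from the plus strand of build GRCh38.p14, at chr11:65497488-65497787 and chr11:65498795-65499094. The peaks are in hg19 coordinates, and neither sequence was placed on that build. Capitals mark each CG dinucleotide, the letters that DNA methylation acts on.
MALAT1 start 1: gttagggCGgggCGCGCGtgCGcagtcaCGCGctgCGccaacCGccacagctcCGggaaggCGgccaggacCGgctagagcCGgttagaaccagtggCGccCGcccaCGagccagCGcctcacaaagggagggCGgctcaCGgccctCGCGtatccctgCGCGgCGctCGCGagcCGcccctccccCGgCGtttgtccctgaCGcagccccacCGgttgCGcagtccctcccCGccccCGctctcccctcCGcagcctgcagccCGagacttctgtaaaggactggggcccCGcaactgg
MALAT1 start 2: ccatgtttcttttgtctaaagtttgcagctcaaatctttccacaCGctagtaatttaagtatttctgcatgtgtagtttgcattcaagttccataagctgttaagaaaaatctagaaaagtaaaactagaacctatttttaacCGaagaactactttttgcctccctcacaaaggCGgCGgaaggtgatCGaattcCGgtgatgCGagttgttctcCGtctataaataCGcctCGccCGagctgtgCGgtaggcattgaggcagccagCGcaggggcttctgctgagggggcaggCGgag
The upstream start was rich in G and C (73.7%, above 87.7% of the 35116 RefSeq promoter windows of the same length) and held 37 CG dinucleotides, more than 88.7% of those windows. The downstream start had a GC content of 46% and 14 CG dinucleotides, against medians of 58.7% and 14. The GC box GGGCGG, counted on both strands, was found 5 times in the upstream window and 0 times in the other. It was present in 44.95% of all windows. The TATA box TATAAA was found once, in the downstream window, and in 11.5% of all windows on either strand. These matches describe letters and do not show that a factor binds.

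MALAT1 carried a single peak of each protein, and both lay at its start. That is 111.1 peaks per Mb in each list, beside 332.4 (Spindlin1) and 369.8 (C11orf84) over the whole segment. With a single peak per list, no difference from the segment is read from this. The rule places MALAT1 at about 65265000 to 65274000. The Spindlin1 peak (65264909 to 65265378) had its summit at 65265078 with 23 fragments over it (14.6 to 34.5), a fold of 5.65 and a −log10 q of 9.60. Here the fold is the authors' ratio of the summit to a local background, and the number of fragments over a summit, called its depth, was recovered from the authors' fold and p-value. The C11orf84 peak (65264949 to 65265417) had its summit at 65265112 with 26 fragments (17.0 to 38.1), a fold of 7.40 and a −log10 q of 13.9. The ratio of the depths, C11orf84 over Spindlin1, was 1.13 (exact binomial interval 0.62 to 2.07), so the libraries did not differ there beyond counting error. Over the remaining stretch of MALAT1 both lists were empty, and the next summit lay 18.6 kb past its end in each list.

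Depth and fold ranked this MALAT1 peak differently. By depth it was 6th of the Spindlin1 peaks of the segment and 2nd of the C11orf84 peaks, whereas by fold it ranked 863 and 244. The floor is the lowest background in a list, and the MALAT1 start stood at 3.42 times the floor in Spindlin1 and at 2.55 times in C11orf84. That background was the 12th highest in the segment for Spindlin1 and the 69th for C11orf84. Only 6.86% of Spindlin1 peaks (5.69 to 8.18) and 8.27% of C11orf84 peaks (7.06 to 9.62) in the segment stood on a raised background, meaning at least 2 times the floor. In the whole lists these shares were 9.07% and 9.19%, and in the rest of chromosome 11 they were 7.04% and 7.21%. The part of the raised background in the depth at MALAT1 was not tested.

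NEAT1 carried peaks of both proteins at its 2 ends, with a long stretch between them that was nearly empty. The rule places it at about 65190000 to 65213000. Within these limits lay 6 Spindlin1 summits, of which 4 peaks overlapped a C11orf84 peak, and 5 C11orf84 summits, of which 4 peaks overlapped a Spindlin1 peak. That is 260.9 and 217.4 peaks per Mb, beside 332.4 and 369.8 over the whole segment. These densities rest on 6 and 5 summits and on approximate limits, so no difference from the segment is read from them. With 5 kb more on either side, 14 and 10 peaks were found. Over the segment 79.4% of Spindlin1 and 66.8% of C11orf84 peaks overlapped the other list.

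At the left end of NEAT1, where its transcription begins, a Spindlin1 peak (65189562 to 65190208) with 14 fragments met a C11orf84 peak (65189531 to 65190214) with 21. Their summits, at 65189892 and 65189929, lay just before the limit of the rule and are not among the 6 and 5. The depth ratio of 1.5 had an interval of 0.73 to 3.19. The next Spindlin1 peak (65190379 to 65191033, 17 fragments, fold 7.57) overlapped a pair of C11orf84 peaks, with 17 fragments (65190360 to 65190699) and 18 fragments (65190794 to 65191075). A last Spindlin1 peak of this group (65191236 to 65191421, 13 fragments) had its nearest C11orf84 peak 160 bp away. Backgrounds of these left-end peaks were between 1.42 and 1.64 times the floor, and none was raised.

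In the body of NEAT1 the C11orf84 list had no summit for 18.5 kb, from 65190936 to 65209421. The Spindlin1 list had 1 summit in that stretch, at 65203527 (14 fragments, fold 5.72, background 1.71 times the floor), and its longest empty run was 12.2 kb. That Spindlin1 peak was 5740 bp from the nearest C11orf84 peak.

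At the right end of NEAT1 the peaks were on or near the floor, except for a Spindlin1 peak across the limit (65212960 to 65213299, 11 fragments, summit just past the limit) that stood at 2.28 times the floor and was unshared. At 65209298 to 65209489 both proteins had 12 fragments, in Spindlin1 with a fold of 6.67 and in C11orf84 with 6.38. A C11orf84 peak at 65209656 to 65210050 (11 fragments, fold 5.89, at the floor) was unshared, with the nearest Spindlin1 peak 166 bp away. A C11orf84 peak from 65211854 to 65212445 (16 fragments, fold 8.35) spanned a pair of Spindlin1 peaks of 9 and 12 fragments (65211857 to 65212194 and 65212265 to 65212445). Just past the limit, Spindlin1 peaks at 65213362 to 65213768 (10 fragments) and 65214161 to 65214405 (14 fragments) met C11orf84 peaks of 11 and 10 fragments. The fold at the last of these was 7.70 for Spindlin1 and 5.40 for C11orf84, and the depth ratio of 0.71 had an interval of 0.28 to 1.73. Of the depths set side by side at NEAT1, none differed beyond counting error, but at these depths the intervals are wide. Peaks called in 1 list only could not be compared in this way.

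Between NEAT1 and MALAT1 the deepest peaks of both lists coincided. At 65244930 Spindlin1 reached 20 fragments (12.2 to 30.9) with a fold of 8.13, and C11orf84 reached 23 (14.6 to 34.5) with a fold of 8.79 and a summit at 65244898. At 65222397 and 65222406 the depths were 15 and 18 fragments. The remaining unshared peaks of the interval held from 9 to 13 fragments. They comprised a Spindlin1 peak at 65250451 to 65250622 (9 fragments) and C11orf84 peaks at 65236419 to 65236598 (9 fragments), 65256820 to 65257039 (13 fragments) and 65257792 to 65258060 (11 fragments).

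**Figure D1:**
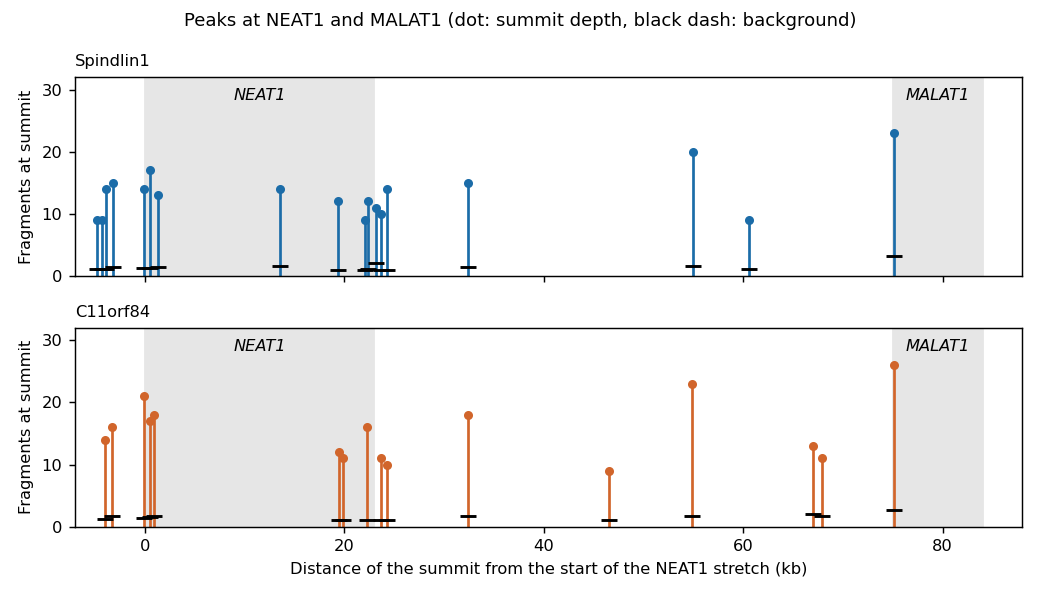
Summit depth in fragments (dots on stems) and background in fragments (black dashes) of every peak from 5 kb before NEAT1 to past MALAT1, for Spindlin1 (top) and C11orf84 (bottom), against the distance of the summit from the start of the NEAT1 stretch in kb. Grey bands are the stretches of NEAT1 and MALAT1 given by the rule. Peaks stand at both ends of NEAT1 and at the start of MALAT1, where depth was 23 and 26 fragments.

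The segment as a whole was crowded with peaks of both proteins. It held 332.4 Spindlin1 and 369.8 C11orf84 peaks per Mb, against 51.7 and 59.8 per Mb over the rest of chromosomes 1 to 22 and X. The density was thus 6.43 times (6.13 to 6.75) that of the rest for Spindlin1 and 6.18 times (5.90 to 6.47) for C11orf84. Against the rest of chromosome 11 alone the ratios were 6.14 and 5.64. Spindlin1 peaks covered 10.6% of the segment and C11orf84 peaks 14.1%, compared with 1.59% and 2.04% over all chromosomes used.

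Among 599 windows of 5 Mb laid end to end along the genome, the segment ranked 11th for Spindlin1 and 9th for C11orf84. The median of the other windows was 95.5 and 113 peaks. Every denser window, 10 for Spindlin1 and 8 for C11orf84, began or ended within 5 Mb of the outermost peak of its chromosome, and the segment did not. Among the 507 windows farther from an end it was the densest in both lists, ahead of a window on chromosome 9 at 129 to 134 Mb with 1549 and 1757 peaks. That order depends on where windows begin. With windows started every 1 Mb, 2 for Spindlin1 and 1 for C11orf84 away from the ends and apart from the segment held more, led by chromosome 17 at 71 to 76 Mb with 2034 and 2169 peaks. The stretch from 66 to 71 Mb of chromosome 11 held 1667 and 1924.

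The many peaks of the segment were not deep ones. The median Spindlin1 summit held 11 fragments (quartiles 10 and 13) and the median C11orf84 summit 12 (10 and 14). The whole lists had the same medians and lower quartiles, with upper quartiles of 14 and 15. Peaks with a −log10 q of 10 or more numbered 129 for Spindlin1 (7.76%, 6.52 to 9.15) and 240 for C11orf84 (12.98%, 11.5 to 14.6). In the whole lists 11.8% and 15.7% did so, and in the rest of chromosome 11 the shares were 7.68% and 11.5%, so the low share was not particular to the segment. The highest fold was 11.1 for Spindlin1 and 10.8 for C11orf84, while the whole lists reached 22.1 and 19.9. Peaks at the floor made up 58.2% of Spindlin1 and 55.6% of C11orf84 members, against 48.1% and 49.3% in the rest of the genome. In the rest of chromosome 11 they made up 55.2% and 55.6%.

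Peaks in the segment were wider and closer together than in the rest of the genome. Median width was 259.5 bp for Spindlin1 and 299 bp for C11orf84, against 229 and 248 bp in the rest. Neighbouring summits of 1 list lay a median of 1042 bp apart for Spindlin1 and 1067.5 bp for C11orf84, and 1864 and 1659 bp apart in the rest. Steps under 1 kb made up 48.6% and 47.9% of all steps, against 33.4% and 35.0%.

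Peak numbers varied strongly within the segment, with a similar, though not identical, course for both proteins. From the first Mb to the last, Spindlin1 had 413, 335, 261, 304 and 349 peaks and C11orf84 had 491, 328, 317, 313 and 400. The lowest Spindlin1 number was in the middle Mb, while the lowest C11orf84 number was in the one after it. Median depth was 11 and 12 fragments in each of them. Beyond the segment the numbers stayed high to the right (384 and 448 from 69 to 70 Mb, 369 and 446 from 70 to 71 Mb) before falling to 132 and 138, and on the left they were 252 and 288 from 63 to 64 Mb.

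At 100 kb the range was from 0 to 79 Spindlin1 and from 0 to 80 C11orf84 peaks, with medians of 30.5 and 34. Window by window, over 50 windows that share libraries and local background, the numbers of the lists were correlated with a Pearson r of 0.96 and a Spearman rho of 0.95. The densest window was 65.3 to 65.4 Mb with 79 and 80 peaks. It follows directly on the window of MALAT1, 65.2 to 65.3 Mb, which had 17 and 16. Next came 68.8 to 68.9 Mb (71 and 76) and 64.6 to 64.7 Mb (69 and 76). C11orf84 had more peaks than Spindlin1 in 32 windows and fewer in 12.

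Some stretches, found by asking for no summit of either list, were empty. The longest had no summit of either protein for 290.3 kb, from 67473967 to 67764225, and it emptied the windows from 67.5 to 67.7 Mb. The next were 84.6 kb (68267107 to 68351722) and 80.4 kb (66529740 to 66610173). The window from 66.9 to 67 Mb held 3 peaks of each list.

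**Figure D2:**
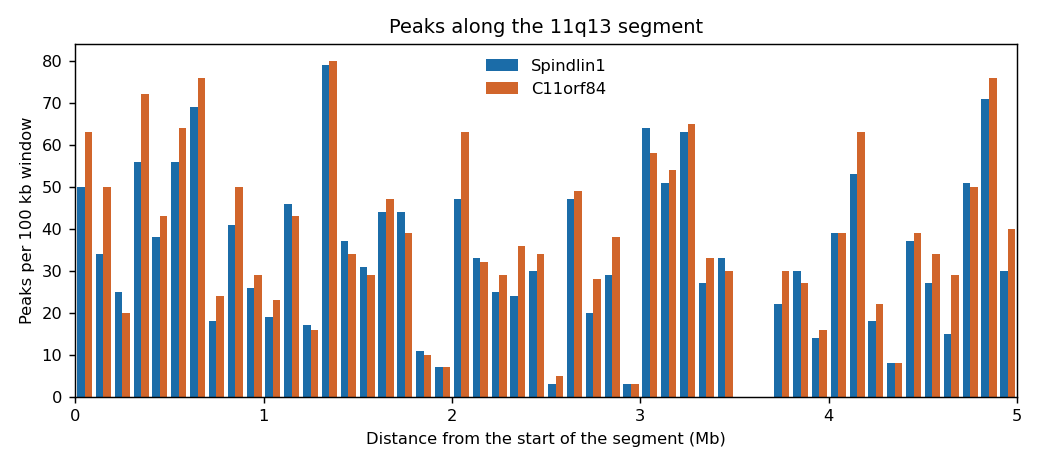
Number of Spindlin1 (blue) and C11orf84 (orange) peaks in each of the 50 windows of 100 kb, against distance from the start of the segment in Mb. The bars of the lists rise and fall together, reach 79 and 80 peaks in the densest window, and are missing in both lists in 2 windows.

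Most peaks of the segment were shared, meaning that they overlapped the other list by at least 1 bp. Of the Spindlin1 peaks 1319 (79.4%, 77.3 to 81.3) were shared and of the C11orf84 peaks 1235 (66.8%, 64.6 to 68.9). Over all peaks the shares were 69.7% and 57.6%. In bases, 369.6 kb were common, which is 69.5% of the Spindlin1 and 52.6% of the C11orf84 territory of the segment. The share was highest from 67 to 68 Mb in both lists, at 83.6% (78.9 to 87.5) and 73.2% (67.9 to 78.0), and the intervals of the 5 stretches of 1 Mb overlap for Spindlin1. For C11orf84 that share and the 60.9% (55.3 to 66.3) from 66 to 67 Mb have intervals that do not overlap.

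The excess of shared peaks over the rest of the genome was found under some rules of overlap and not under others. With summits at most 200 bp apart the shares were 59.5% and 52.9%, against 55.0% and 47.5% in the rest. With at least 50% of both intervals in common they were 47.2% (44.8 to 49.7) and 42.5% (40.2 to 44.7), against 47.5% and 41.0%, a difference within counting error. With a −log10 q of at least 10 asked of both lists the direction turned. Then 27.9% of the 129 Spindlin1 peaks (20.4 to 36.5) and 15% of the 240 C11orf84 peaks (10.7 to 20.2) were shared, against 49.2% and 31.0% in the rest. The same 129 and 240 peaks overlapped some peak of the other list, of any −log10 q, in 90.7% (84.3 to 95.1) and 86.3% (81.2 to 90.3), against 90.9% and 83.6% in the rest. The highest −log10 q was 20.4 and 18.3 in the segment, and 135.5 and 138.2 in the rest. The part of this narrower range in the turned direction was not tested.

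At the background floor the shared part was larger in the segment than in the rest at each depth from 7 to 17 fragments, except for Spindlin1 at 17 (90% of 10 peaks against 91.0%). The gap narrowed with depth for Spindlin1, though not at every step. For C11orf84 the course was more uneven. There the gap was widest at 7 fragments (57.9%, 33.5 to 79.7, against 30.9%) and narrowest at 17 (86.4%, 65.1 to 97.1, against 82.3%). Spindlin1 peaks of 8 fragments were shared in 77.1% (66.6 to 85.6) against 55.1% in the rest, those of 10 fragments in 78.7% (71.9 to 84.4) against 62.9%, and those of 15 in 89.5% (75.2 to 97.1) against 86.8%. C11orf84 peaks of 8 fragments were shared in 55.2% (42.6 to 67.4) against 35.4%, those of 9 in 50% (41.0 to 59.0) against 40.5%, those of 11 in 65.9% (58.1 to 73.1) against 49.3%, those of 13 in 79.7% (71.5 to 86.4) against 63.3%, and those of 15 in 85.7% (72.8 to 94.1) against 76.3%. In all, 968 Spindlin1 peaks at the floor were shared in 80.9%, and the shares of the rest applied to the same depths gave 68.4%. For the 1028 C11orf84 peaks these values were 68.1% and 55.1%.

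Windows about as dense as the segment had shares on both sides of its own, over a wide range for C11orf84. There were 8 other windows of 5 Mb with a Spindlin1 number within 20% of that of the segment, and their shares ran from 76.5% to 90.2% with a median of 80.9%. For C11orf84 12 such windows ran from 41.4% to 84.95% with a median of 65.3%. In each list 5 of these windows had a larger share than the segment. Unlike the segment, 6 of the Spindlin1 windows and 10 of the C11orf84 windows lay within 5 Mb of a chromosome's outermost peak. How much of the sharing follows from crowding alone was not tested.

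**Figure D3:**
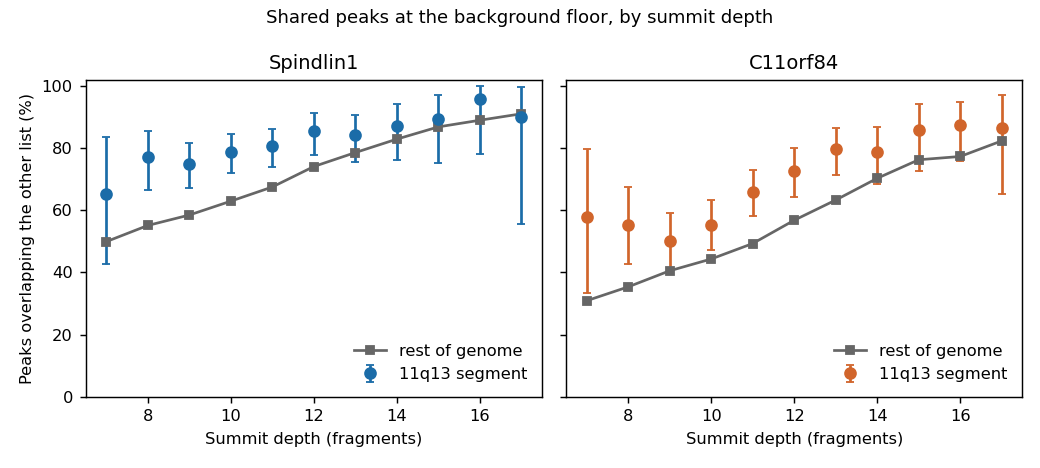
Percentage of peaks at the background floor that overlap the other list, against summit depth in fragments, for Spindlin1 (left) and C11orf84 (right). Circles with exact 95% intervals are the segment and grey squares the rest of the genome; the segment lies above the rest at low depth (77.1% against 55.1% for Spindlin1 at 8 fragments) and close to it for Spindlin1 at 15 (89.5% against 86.8%).

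Summit depths of the libraries could be compared at 1171 pairs of overlapping peaks in the segment, each the other's nearest. The median depth in these pairs was 11 (Spindlin1) and 13 fragments (C11orf84), with summits a median of 62 bp apart, against 50 bp over all pairs of the genome. The geometric mean of the ratio, C11orf84 over Spindlin1, was 1.08, close to the 1.09 that separates the floors of the lists. C11orf84 was the deeper in 658 pairs, Spindlin1 in 370, and 143 were equal. Only 1 pair (0.0854%) had an exact binomial interval of its ratio that left out the ratio of the floors, and over all 97377 pairs of the genome 0.147% did. At that pair Spindlin1 had 10 fragments at 64668297 and C11orf84 had 24 at 64668050, a ratio of 2.4 (1.11 to 5.62), on backgrounds of 1.0 and 1.64 times the floor. The pairs of the segment are shallow, so a small difference between the proteins was not detectable at this depth. Even the ratio of 2.4 had an interval that began at 1.11, so moderate differences could go unseen too. Pairs exist only where both lists had a called peak, and places of large difference can be missing from them. The low share outside the interval is therefore no measure of agreement between the proteins. As a description of pairs that share local background, Pearson r of the log2 depths was 0.38 and Spearman rho 0.34, and over all pairs they were 0.59 and 0.53. Depths reached 29 (Spindlin1) and 28 fragments (C11orf84) in the segment, and 279 and 288 in the whole lists. The part of this narrower range in the lower coefficients was not tested.

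**Figure D4:**
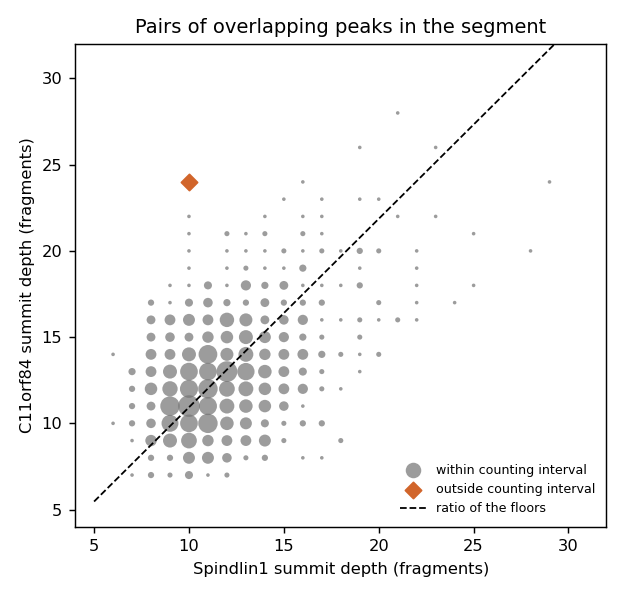
Summit depth in fragments of C11orf84 against Spindlin1 at the 1171 pairs of overlapping peaks in the segment, with dot area in proportion to the number of pairs and the dashed line at the ratio of the floors, 1.09. The cloud lies around the line at 10 to 15 fragments, and the diamond is the 1 pair outside its counting interval, at 10 and 24 fragments.

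The single peak of highest fold in the segment was at a different place in each list. For Spindlin1 the leading peak was at 65585448 to 65586078 (28 fragments, fold 11.1), and the C11orf84 peak over it had 20 fragments and a fold of 6.44. The next lay at 65659311 to 65659554 (21 fragments, fold 10.6). It was followed by a pair at the floor with 19 fragments and a fold of 10.3, at 66003996 to 66004205 and at 68868935 to 68869252. In the segment 79.4% of all Spindlin1 peaks, and 90.7% of those with a −log10 q of at least 10, overlapped C11orf84. Of the 10 leading Spindlin1 peaks 8 did. The others, at 64330012 to 64330434 and 68884930 to 68885205 (18 fragments, fold 9.75), had a C11orf84 peak 127 and 473 bp away.

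For C11orf84 the leading peak was at 66049734 to 66050539, with a fold of 10.8 at 23 fragments, where Spindlin1 had 15 fragments and a fold of 5.05. Peaks at the floor with 21 fragments, and again a fold of 10.8, followed at 65305788 to 65306350, 67199752 to 67200461 and 68445692 to 68445934, where the Spindlin1 peak had 10, 14 and 12 fragments. In the segment 66.8% of all C11orf84 peaks, and 86.3% of those with a −log10 q of at least 10, were shared. Of the 10 leading C11orf84 peaks it was again 8. The others, at 66309262 to 66309997 and 68078693 to 68078968 (20 fragments, fold 10.3), had a Spindlin1 peak 1066 and 1777 bp away. The peaks in places 5 to 10 had the same fold and q-value, and ties were ordered by position. A further peak with that fold, left out by this order alone, was the C11orf84 peak at 68868729 to 68869584 (20 fragments, −log10 q 15.7). It lies over the Spindlin1 peak at 68868935 to 68869252 named above, so this region was among the leading ones of both lists.

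Depth and fold led to the same region in some cases and to different ones in others. The Spindlin1 peak of highest fold was also 2nd by depth, whereas the C11orf84 peak of highest fold was 9th. The deepest Spindlin1 summit had 29 fragments, at 64851339 to 64851887, with a background of 2.85 times the floor, and the C11orf84 peak there had 24 fragments on 3.82 times the floor. The deepest C11orf84 summit had 28 fragments, at 65819462 to 65820222, on 1.96 times the floor, and Spindlin1 had 21 there on 3.99 times. The highest Spindlin1 background was 5.14 times the floor (66360350 to 66360521, 19 fragments), and the highest for C11orf84 was 4.91 times (68924360 to 68924800, 17 fragments). Of the 114 Spindlin1 peaks on a raised background 84.2% (76.2 to 90.4) were shared, close to the 80.9% at the floor. Of the 153 C11orf84 peaks on a raised background 65.4% (57.3 to 72.9) were shared, against 68.1% at the floor. Over all peaks the shares on a raised background and at the floor lay farther apart. They were 79.1% and 68.0% for Spindlin1, and 68.8% and 53.4% for C11orf84.

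The widest interval of both lists was the same region. C11orf84 covered 65558124 to 65560513 (2390 bp, 18 fragments, fold 9.33) and Spindlin1 covered 65558035 to 65559837 (1803 bp, 13 fragments, fold 5.84). The other C11orf84 intervals of great width were 65686264 to 65688271 (2008 bp), 67382446 to 67384300 (1855 bp), 64949282 to 64951069 (1788 bp) and 64067017 to 64068756 (1740 bp). For Spindlin1 they were 64660619 to 64661884 (1266 bp), 67980973 to 67982178 (1206 bp), 65658066 to 65659257 (1192 bp) and 67208180 to 67209343 (1164 bp). All of these overlapped the other list, as did 79.4% of all Spindlin1 and 66.8% of all C11orf84 peaks of the segment. A wide interval has more room to meet another peak, and the part of width in this was not tested. Intervals that spanned at least 2 peaks of the other list numbered 166 for C11orf84 (8.98%, 7.71 to 10.4) and 101 for Spindlin1 (6.08%, 4.98 to 7.34). Over all peaks these were 5.56% and 4.19%. The most spanned by 1 interval was 3 in both directions.

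Few peaks of the segment stood apart from the other protein. No peak of the other list within 5 kb was found for 22 Spindlin1 peaks (1.32%, 0.83 to 1.997) and 45 C11orf84 peaks (2.43%, 1.78 to 3.24), against 8.36% and 10.9% of all peaks. The part of the high density in these shares was not tested. The Spindlin1 peak of highest fold among them lay at 65827239 to 65827573 (fold 7.68, 15 fragments), 7.02 kb from C11orf84, and the most distant of the leading 5 at 66955084 to 66955348 (11 fragments), 21.0 kb away. For C11orf84 the highest fold was at 68544383 to 68544603 (7.30, 15 fragments, 5.50 kb away), and the most distant of its leading 5 was at 66529647 to 66529910 (13 fragments, 17.0 kb away), at the edge of the 80.4 kb empty stretch. A missing call in 1 list does not measure absence of the protein. Unshared peaks in general were narrow, with medians of 193 against 291 bp for shared Spindlin1 peaks and 216 against 366 bp for C11orf84. Median depth was 11 fragments for both shared and unshared Spindlin1 peaks, and 13 against 11 for C11orf84. Over all peaks unshared peaks were narrow too, at 191 against 264 bp for Spindlin1 and 208 against 312 bp for C11orf84. There the median depth of shared against unshared peaks was 12 against 10 for Spindlin1 and 13 against 11 for C11orf84.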

How the data were processed

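Per the submitters' processing notes, reads were aligned with Bowtie 1.2.2 to hg19. Peak caller, threshold and control were not given in the sources used here. A deposited list belongs to 1 sample. Per column of the deposited lists, a peak has the authors' fold (a ratio of the summit to a local background), a −log10 p-value, a −log10 q-value and a score that repeats the q-value and was not used. Start, end and summit offset are in bases and are printed counting from 1. These values are the authors' own and rank peaks within their list only. Input files were not analysed here.

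With k fragments over a summit and background λ, the fold was read as (k + 1)/(λ + 1) and p as the Poisson tail above k, a model inferred from the values. A whole k met both values in 100% of peaks (largest error 0.000174 in −log10 p). Floors of 0.949 (Spindlin1) and 1.04 fragments (C11orf84) were the lowest backgrounds, and peaks within 0.1% of them counted as at the floor. Total read numbers are unknown, and summits under 20 fragments (98.3% and 96.9% of members) limit the precision. Chromosome Y (90 and 82 peaks) was left out of comparisons. On simulated data depth was returned for 100% of 19659 peaks and overlap for 100% of 10000 intervals. The simulated peaks were made with the same model, and the simulated intervals were more widely spaced than peaks of the segment. The simulation therefore checks the arithmetic, not the model or the overlap in crowded stretches. Scripts ran in Python 3.11.15 with pandas 2.3.3, SciPy 1.17.1, NumPy 2.4.6 and, for figures, matplotlib 3.10.9.

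The members, the lists and the rules were chosen with earlier results of these data known. Named regions are the 10 peaks of highest fold per list (ties by −log10 q, then position), the 5 widest, the 5 of highest fold with no peak of the other list within 5 kb, the densest and emptiest 100 kb windows, the longest empty stretches, and the peaks at NEAT1 and MALAT1. The deepest summits, the highest backgrounds and the pair outside its interval were chosen after their values were seen. Lists of 60 genes of the band were drawn up, but the gene table in hand is of build GRCh38.p14, so start sites were not compared and it gave gene order only.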

Additional observations from a re-analysis of the deposited data

How the results depend on the processing

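Taking members by any overlap of the interval gave the same 1662 and 1849 peaks and the same shares. Shared parts moved from 79.4% and 66.8% to 47.2% and 42.5% with 50% of both intervals common, 59.5% and 52.9% with summits at most 200 bp apart, and 27.9% and 15% when both lists were held to a −log10 q of 10 or more. That threshold left 129 and 240 peaks, and a density of 4.22 and 5.10 times the rest. Without peak-free stretches of 1 Mb or more the density was 5.82 and 5.59 times the rest, and against chromosome 11 alone 5.64 times for C11orf84. With raised background set at 1.5 times the floor, the shares became 17.0% and 18.8%. Windows started every 1 Mb, chosen after seeing the data, raised the number of denser windows away from chromosome ends from 0 to 2 for Spindlin1 and to 1 for C11orf84. At NEAT1, 5 kb more on either side gave 14 and 10 peaks, and the same threshold left 1 and 3. At MALAT1 it left 0 Spindlin1 peaks and kept the C11orf84 one. The alternatives for gene start sites were not run, since hg19 gene positions were not used here. No paired analysis was possible because each antibody has 1 library.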
